A study of Mus musculus with 12 samples.

Results

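Kidneys of cisplatin-treated mice given the lower dose of extracellular vesicles were compared with kidneys of normal mice, to describe what differed from normal in every library after that treatment. The 6 libraries, 3 EV200 and 3 normal, are 6 of 12 in the series and were taken by their labels. Extracellular vesicles are membrane particles that cells shed, here from cells the labels call iMSC, a name they do not expand. All mice were male C57BL/6 of wild-type genotype, and all libraries carry the same batch label. The EV200 mice had 5 weekly intraperitoneal cisplatin cycles at 9 mg/kg, then 5 intravenous vesicle doses of 200 µg at 3-day intervals, with kidneys taken 3 days after the last. Normal mice received no cisplatin and no vesicles, and no saline injections are listed for them. Cisplatin, the injections and the vesicles therefore cannot be told apart in this comparison. The other 2 groups, given cisplatin with PBS (saline) or with 400 µg of vesicles (EV400), entered the fit and are quoted only where they bear on a value. The labels call the libraries of a group biological replicates without saying that each came from a separate mouse, so the p-values measure the spread between these samples only.

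Cisplatin enters the proximal tubule, the segment that reabsorbs most of the filtrate, through organic cation carriers and crosslinks DNA there. Injured tubule cells lose transporters and switch on secreted and adhesion proteins such as lipocalin 2, KIM-1 and VCAM-1, while macrophages gather and fibroblasts lay down collagen between the tubules. The loop of Henle, with its thin limbs and salt-reabsorbing thick ascending limb, follows the proximal tubule. In male mice the proximal tubule also expresses a set of androgen-dependent genes.

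Library totals were 50.27 to 52.59 M counts in the normal group and 53.02 to 61.81 M in the EV200 group. Library EV200 3 stood apart: on the first principal component of log2 CPM (43.4% of the variance over the 12 libraries) it lay at 60.5, against -18.7 and -8.6 for EV200 1 and EV200 2 and -47.9 to -39 for normal. Levels are CPM (a gene's counts scaled by edgeR's TMM to a common library size). A gene is called where edgeR's quasi-likelihood test gives a Benjamini-Hochberg adjusted p under 0.05 over the 18730 genes tested, and is without overlap where all 3 EV200 libraries lie on one side of all 3 normal ones. The summed level of the 30 early proximal tubule genes was 30580, 28350 and 21300 CPM in the EV200 libraries, under the normal 31440 to 31910 CPM. Of the 10 adipose tissue genes, the fat-cell hormone gene Adipoq was at 0.0328, 0.0369 and 0 CPM in the EV200 libraries and 0 in the normal ones. Of the 4 adipose genes tested, 2, Plin4 and Fabp4, lay above every normal library (50%, against 11.9% of all genes tested). The others, Lpl and Cidec, overlapped, with log2 fold changes of -0.30 and -0.095, and the list median was 0.06. Fabp4 was at 33.08 to 33.77 CPM against 26.61 to 30.09 CPM.

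Between EV200 and normal, 13 genes were called (0.0694% of the genes tested), 6 higher (0.032%) and 7 lower (0.0374%), and none of the 13 overlapped. The 6 that rose were Irx2, St14, Stk32b, Abca4, Ildr1 and Bsnd, by 1.33 to 1.82-fold. The 7 that fell included Synpr, Ctxn3 and Srd5a2, the renal transporter gene Slco1a1 and the lysosomal gene Gusb. At an unadjusted p under 0.05 there were 2469 genes, and 1660 of them were higher. The count of calls depended on single libraries. Without EV200 3 it was 8 genes (0.042% of those tested), all among the 13: St14, Stk32b, Ildr1, Coro2a, Srd5a2, Ctxn3, Synpr and LOC115488616. Irx2, Abca4, Bsnd, Slco1a1 and Gusb were then not called (edgeR adjusted p 0.121 to 0.188). Without EV200 2 it was 4, and without normal 1, 2 or 3 it was 2, 2 and 4. Without EV200 1 it was 58, of which 11 were among the 13.

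Promoter sequence is shown for a pair of called genes in each direction, picked after the windows were seen, to set CG-rich starts beside the 1 window without a CG. They are RefSeq windows of 300 bases around a transcript start in GRCm38.p6, read 5′ to 3′ on the gene's own strand, with every CG dinucleotide in capitals. Ildr1 lies at chr16:36693728-36694027 (plus strand), Irx2 at chr13:72628570-72628869 (plus), Srd5a2 at chr17:74047811-74048110 (minus) and Slco1a1 at chr6:141946913-141947212 (minus). The Irx2 window lies inside the annotated span of the gene, as do the Abca4 window, 1 of the 2 Coro2a and 1 of the 2 Synpr windows searched.
Ildr1: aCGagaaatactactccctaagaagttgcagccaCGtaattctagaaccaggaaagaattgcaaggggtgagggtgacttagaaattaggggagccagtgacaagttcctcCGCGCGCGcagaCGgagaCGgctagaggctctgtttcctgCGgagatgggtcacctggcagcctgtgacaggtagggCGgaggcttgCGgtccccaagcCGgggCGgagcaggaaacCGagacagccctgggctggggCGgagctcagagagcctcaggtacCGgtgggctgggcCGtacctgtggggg
Irx2: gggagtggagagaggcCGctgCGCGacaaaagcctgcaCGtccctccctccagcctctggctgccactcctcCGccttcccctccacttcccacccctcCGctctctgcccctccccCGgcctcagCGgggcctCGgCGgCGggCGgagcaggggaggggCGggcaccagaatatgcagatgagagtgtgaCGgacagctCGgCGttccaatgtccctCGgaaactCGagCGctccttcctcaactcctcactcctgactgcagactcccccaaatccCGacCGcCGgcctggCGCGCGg
Srd5a2: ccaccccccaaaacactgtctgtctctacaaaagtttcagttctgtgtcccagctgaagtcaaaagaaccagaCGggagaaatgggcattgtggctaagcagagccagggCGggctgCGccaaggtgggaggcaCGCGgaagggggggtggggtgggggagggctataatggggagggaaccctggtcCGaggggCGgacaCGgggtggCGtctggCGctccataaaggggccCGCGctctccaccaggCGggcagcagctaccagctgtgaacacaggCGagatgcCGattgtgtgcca
Slco1a1: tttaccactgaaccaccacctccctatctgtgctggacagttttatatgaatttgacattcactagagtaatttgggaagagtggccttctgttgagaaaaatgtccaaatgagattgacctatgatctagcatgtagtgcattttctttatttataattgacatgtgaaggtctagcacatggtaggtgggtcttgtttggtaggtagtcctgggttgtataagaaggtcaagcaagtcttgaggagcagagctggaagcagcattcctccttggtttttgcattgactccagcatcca
The Irx2 window holds 25 CG dinucleotides, Ildr1 17 and Srd5a2 15, while that of Slco1a1 holds 0; the median of all 32851 windows is 7. Windows were found for 9 of the 13 called genes, 11 windows in all. On either strand, AGAACA, a core sequence of steroid hormone response elements, occurred in 1 of the 11, a Coro2a window, and in 19.0% of all windows. The TATA sequence TATAAA occurred in 2, those of Slco1a1 and Abca4, and in 13.6% of all. In Slco1a1 it lay on the opposite strand only, so the window as printed reads TTTATA there. CACGTG and AACCGG occurred in 0 of the 11, and in 7.15% and 6.83% of all.

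**Figure D1:**
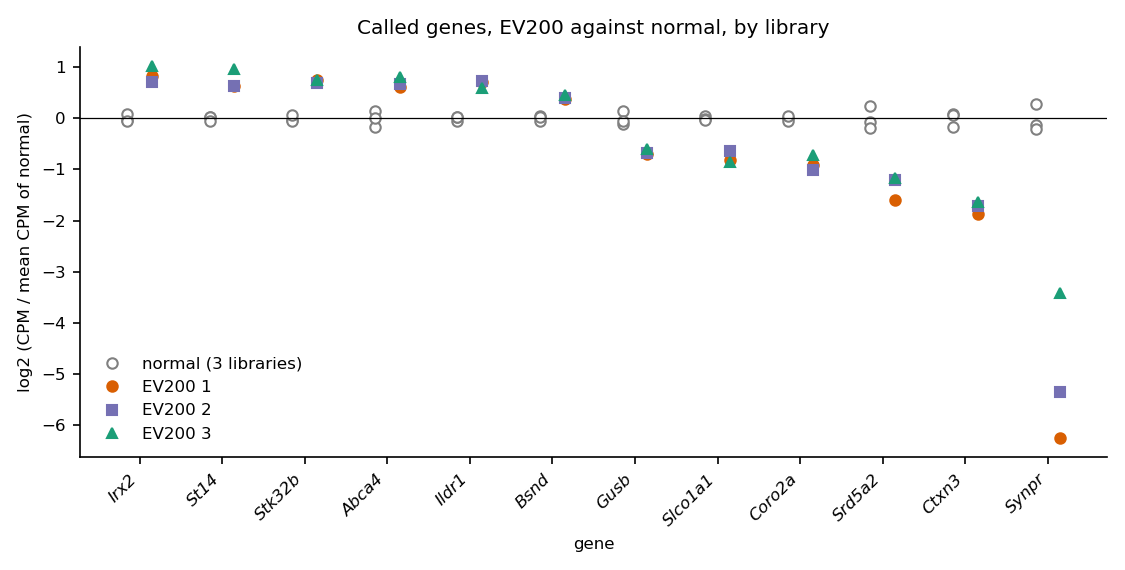
Levels of 12 called genes in each library, as log2 of CPM over the mean of the normal libraries; open circles are the 3 normal libraries and filled marks the 3 EV200 libraries. In each gene the EV200 libraries lie on one side of the normal ones, and Synpr spans the widest range, from 0.148 CPM in EV200 1 to 1.055 CPM in EV200 3.

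Among the genes that rose, St14 encodes matriptase, a membrane serine protease of epithelia (chromosome 9, 31088590 to 31131811, GRCm38). It stood at 32.14, 32.19 and 30.5 CPM in normal libraries and 49.09, 48.94 and 61.28 CPM in EV200 libraries. The lowest EV200 value lay 1.52-fold above the highest normal one, and the log2 fold change was 0.75 ± 0.09 (SE, adjusted p 0.00988, edgeR). Ildr1 encodes a protein of the tight junctions where 3 cells meet (chromosome 16, 36693978 to 36726804). Its level was 11.05 ± 0.323 CPM in normal and 17.74 ± 0.847 CPM in EV200 libraries (SD, n = 3; edgeR adjusted p 0.00988). EV200 3, at 16.76 CPM, was the EV200 library nearest to normal.

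Irx2, a homeobox transcription factor of the Iroquois family (chromosome 13, 72624430 to 72634196), was at 8.33, 9.073 and 8.324 CPM in normal and 15.21, 14.04 and 17.52 CPM in EV200 libraries. It rose 1.82-fold, the largest rise among called genes (log2 0.86 ± 0.13 SE, edgeR adjusted p 0.0351). Stk32b, which encodes a serine/threonine kinase (chromosome 5, 37446825 to 37717153), had the tightest EV200 values: 15.78, 15.16 and 15.74 CPM against 9.207, 9.114 and 9.902 CPM. Abca4, a lipid transporter best known from photoreceptors (chromosome 3, 122043891 to 122180070), rose from 6.657 ± 0.726 to 10.83 ± 0.781 CPM (SD, n = 3). Their edgeR adjusted p were 0.00988 and 0.0408.

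Of the genes that fell, Srd5a2 encodes the steroid 5-alpha-reductase that makes dihydrotestosterone (chromosome 17, 74014891 to 74047860). Normal libraries held 54.44, 67.5 and 50.07 CPM and EV200 libraries 19.03, 24.84 and 25.41 CPM. The highest EV200 value lay 1.97-fold below the lowest normal one, and the log2 fold change was -1.31 ± 0.16 (SE, edgeR adjusted p 0.00988). An exon of Srd5a2 overlaps another gene model on the same strand in GENCODE vM21, and their reads cannot be separated here.

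Ctxn3, which encodes cortexin 3, a small membrane protein (chromosome 18, 57467751 to 57478134), was at 7.951, 7.821 and 6.705 CPM in normal and 2.035, 2.29 and 2.422 CPM in EV200 libraries. It fell to 0.3 of normal (edgeR adjusted p 0.00446) and was called in all 14 alternative settings. Synpr encodes synaptoporin, a vesicle membrane protein first known from synapses (chromosome 14, 13284780 to 13615469). Its normal level of 10.36, 13.67 and 9.798 CPM compared with 0.1477, 0.277 and 1.055 CPM after treatment (edgeR adjusted p 0.0351). These EV200 values rest on 9, 15 and 61 counts against 472 to 666 in normal libraries, and the log2 fold change was -4.51 ± 0.65 with EV200 3 and -5.73 without it.

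Coro2a, an actin-binding coronin (chromosome 4, 46536937 to 46601929), fell from 15.19 ± 0.478 to 8.298 ± 0.883 CPM (SD, n = 3; edgeR adjusted p 0.0292). One of its exons overlaps a gene model on the opposite strand. The last of the 7 was LOC115488616, a transcribed pseudogene of RefSeq on chromosome 16, which lies outside the naming rule and was picked after its values were seen. It had 20, 24 and 26 counts in normal libraries and 0 in each EV200 library. Against a floor of 3 counts over the EV200 group it was at least 27.5-fold lower (edgeR adjusted p 0.00446). Its level was 0.3516 to 0.5198 CPM in PBS and 0.4767 to 0.5796 CPM in EV400 libraries, close to the normal 0.3986 to 0.5397 CPM.

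The comparisons of PBS and of EV400 with normal share the normal libraries, so for them levels alone are given. Srd5a2 was at 21.87 to 25.81 CPM in PBS and 27.94 to 38.07 CPM in EV400 libraries. Synpr was at 0.3851 to 1.326 CPM and 0.5216 to 1.637 CPM, respectively. Stk32b was at 10.93 to 12.14 CPM in PBS and 13.04 to 14.26 CPM in EV400, both under the lowest EV200 value of 15.16 CPM. Abca4 was likewise under its lowest EV200 value in both groups. In Irx2, St14, Ildr1 and Bsnd, PBS libraries reached into the EV200 range. St14, for example, was at 47.53 to 51.32 CPM in PBS and 48.94 to 61.28 CPM in EV200. Set directly against PBS, where edgeR called 0.016% of genes, the adjusted p of the 12 called genes other than LOC115488616 ran from 0.589 to 0.938. Against EV400, where it called 0.00534%, they ran from 0.769 to 0.813.

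Without regard to the test, 4662 genes (24.9%) had no overlap, 2238 higher (11.9%) and 2424 lower (12.9%). EV200 3 lay farthest from normal in 72.1% of the higher and 69% of the lower genes. The median log2 difference from normal of the higher genes was 0.35, 0.4 and 0.71 in EV200 1, 2 and 3, and of the lower genes -0.16, -0.16 and -0.31. The nearest libraries of both groups were at least 2-fold apart in 58 higher and 9 lower genes. Of these, 8 and 2 had a mean of 5 CPM or more in the group with the higher level.

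Among higher genes with an EV200 mean of 5 CPM or more, the widest gaps belonged to Gpnmb, Gabrp, Slc14a2, Lcn2, Tnc, Ighg2b, Fst and Lyz2. None of them was called (edgeR adjusted p 0.108 to 0.144). Except for Slc14a2 and Lyz2, their normal means were 0.0479 to 2.074 CPM, so they met this level through the EV200 group alone. In Gpnmb, Gabrp and Lcn2 only EV200 3 was itself above 5 CPM. Gpnmb encodes a glycoprotein of lipid-laden and scavenging macrophages. It had 0, 7 and 0 counts in normal libraries and 124, 208 and 879 in EV200 libraries, or 2.035, 3.841 and 15.21 CPM. Gabrp, a GABA-A receptor subunit of epithelia, was at 1.28, 4.857 and 16.16 CPM against 0 to 0.1661 CPM. EV200 3 was the highest library of both genes. Ighg2b, an immunoglobulin heavy chain gene, had another order, with 66.14 CPM in EV200 1 and 6.187 and 3.806 CPM in EV200 2 and EV200 3.

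For lower genes the 5 CPM rule applied to the normal mean, and provisional symbols were left out. Their widest gaps belonged to Synpr, Ctxn3, Srd5a2, Hsd11b1, Car3, Coro2a, Hrg and Cntnap5a. Hsd11b1 encodes the enzyme that regenerates active glucocorticoid from its inert form. It measured 216, 243.6 and 204.6 CPM in normal and 115, 100.2 and 103.1 CPM in EV200 libraries, a log2 fold change of -1.06 ± 0.18 (SE) that missed the threshold (edgeR adjusted p 0.066). Hrg, which encodes histidine-rich glycoprotein, was at 18.43 ± 0.432 against 10.05 ± 1.31 CPM (SD, n = 3; edgeR adjusted p 0.0742). Car3, a carbonic anhydrase, varied widely among normal libraries (29.15 to 63.23 CPM) and was at 13.48 to 17.91 CPM in EV200 libraries.

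Lists of marker genes were described by the share of members without overlap, their calls and the median log2 fold change. Over all genes tested, 11.9% lay above and 12.9% below every normal library, and the median was 0.004. In bulk tissue, fewer cells of a type and less RNA per cell cannot be told apart.

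Most thick ascending limb genes lay above normal in every EV200 library, and the medians of the list were alike in the 3 libraries. Of the 13 thick ascending limb genes tested, 10 lay above every normal library and 0 below, the median log2 fold change was 0.47, and 1, Bsnd, was called. The list medians in EV200 1, 2 and 3 were 0.52, 0.46 and 0.45. Bsnd encodes barttin, a membrane protein that salt reabsorption in this segment needs (chromosome 4, 106483456 to 106492243). It rose from 37.07, 34.75 and 36.64 CPM to 46.97, 47.93 and 49.32 CPM, a log2 fold change of 0.41 ± 0.06 (SE, edgeR adjusted p 0.0408). It was the smallest change among the called genes, and it rested on a spread of 1.23 and 1.18 CPM (SD).

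Slc12a1, the sodium-potassium-chloride cotransporter that is the target of loop diuretics, was at 598.4, 731.6 and 638 CPM in normal and 1005, 964 and 1116 CPM in EV200 libraries (edgeR adjusted p 0.085). Umod, which encodes uromodulin, the main protein of normal urine, was at 1904, 2199 and 1944 CPM against 2880, 2658 and 2954 CPM (adjusted p 0.106). Ptger3, a prostaglandin E receptor, was at 14.66 to 18.21 CPM against 26.56 to 31.49 CPM. These genes separated the groups in every library without passing the test. Cldn19, a claudin of the magnesium-conducting tight junction, was at 29.5, 29.73 and 51.47 CPM in EV200 libraries, with EV200 3 highest. Of the list, 3 members overlapped, among them Egf and Cldn10. Egf, the growth factor precursor of the distal nephron, was at 1492, 1152 and 775.2 CPM in EV200 1, 2 and 3, around normal values of 943.9 to 1021 CPM, with EV200 3 below them.

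The thin limb list had 4 members, of which 3 lay above every normal library, with list medians of 1.08, 0.99 and 1.59 in EV200 1, 2 and 3. Slc14a2, the urea transporter of the inner medulla, was at 12.77, 12.48 and 3.28 CPM in normal and 50.22, 51.21 and 90.34 CPM in EV200 libraries (edgeR adjusted p 0.119). Fst encodes follistatin, which binds and blocks activin. It was at 1.475, 2.443 and 2.304 CPM against 5.546, 5.356 and 11.16 CPM. In both genes EV200 3 was the highest library. The crystallin gene Cryab was the member that overlapped.

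**Figure D2:**
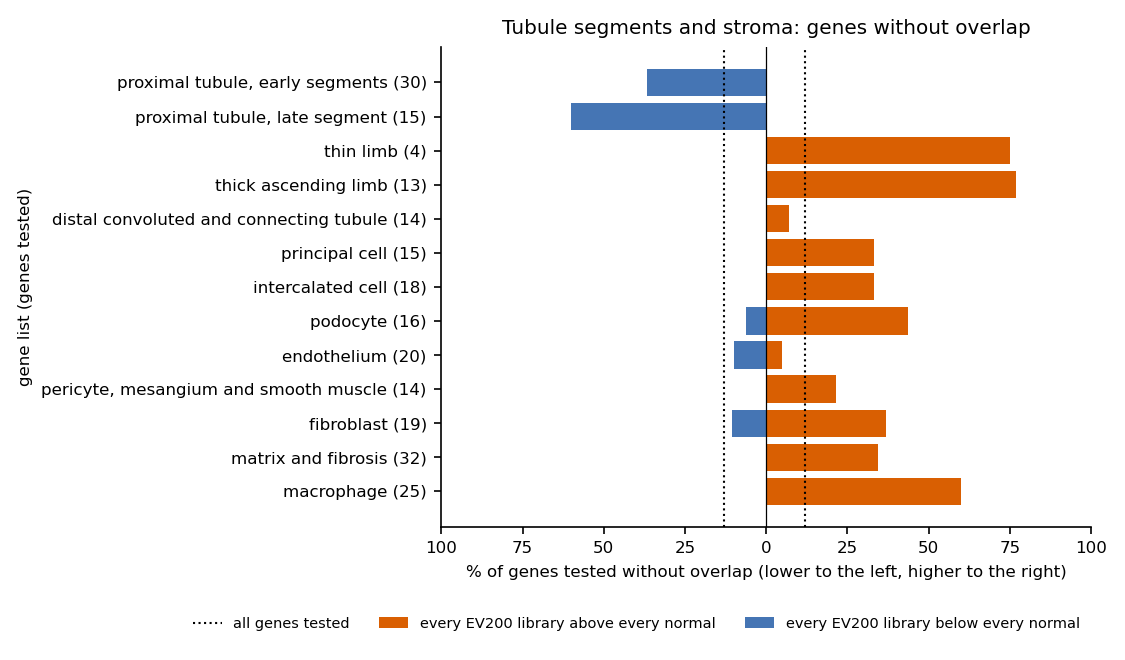
Share of the genes tested of each list (%) with every EV200 library above (right, orange) or below (left, blue) every normal library; dotted lines give the shares over all genes tested, 11.9% and 12.9%. The thick ascending limb reaches 76.9% above, the late proximal tubule 60% below, and endothelium stays under both lines.

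Proximal tubule genes were lower, by small amounts in EV200 1 and EV200 2 and more in EV200 3. All 30 early and 15 late genes had a negative log2 fold change, with medians of -0.23 and -0.25. Without overlap and below normal were 11 of 30 (36.7%) and 9 of 15 (60%), and none was called. The early list stood at medians of -0.04, -0.14 and -0.55 in EV200 1, 2 and 3, and the late list at -0.17, -0.14 and -0.54. Cubn, which encodes the protein-uptake receptor cubilin, was at 763.9 to 813.5 CPM in normal and 673.2, 663.1 and 470.8 CPM in EV200 libraries. Among late-segment genes, Slc22a30, a member of the organic anion transporter family, was at 324.3 to 336.5 CPM against 237.8, 255.9 and 182.4 CPM (edgeR adjusted p 0.0904). Slc5a8, a lactate and short-chain fatty acid transporter, was at 408.8 to 451.2 CPM against 319.6, 334.6 and 276.7 CPM. These late genes lay clear of normal in EV200 1 and 2 as well, and the log2 fold changes without EV200 3 were -0.42 and -0.40.

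Androgen-responsive genes, a list chosen with earlier results of these data known, held 3 of the 7 genes that fell. Over all genes tested, 0.0374% were called lower and 12.9% lay below every normal library. None of the 11 members was called higher. Of the 11, 9 (81.8%) lay below every normal library and 0 above, with a median log2 fold change of -0.57 and list medians of -0.32, -0.42 and -0.67 in EV200 1, 2 and 3. Besides Srd5a2, the called members were Slco1a1 and Gusb. Slco1a1 encodes an organic anion carrier (chromosome 6, 141907281 to 141946962). It fell from 779.8, 753.8 and 735.6 CPM to 428.7, 486.6 and 420.6 CPM (log2 -0.76 ± 0.11 SE, edgeR adjusted p 0.0354). Gusb encodes beta-glucuronidase, which degrades glycosaminoglycans in lysosomes and is a classical androgen-induced gene of mouse kidney (chromosome 5, 129989011 to 130003049). It fell from 106.5, 90.18 and 94.06 CPM to 59.58, 60.76 and 63.82 CPM (edgeR adjusted p 0.0404). EV200 3 was the library of the 3 nearest to normal in Gusb. Without EV200 3 the log2 fold changes were -0.73 for Slco1a1 and -0.69 for Gusb, and of the list Srd5a2 alone was called.

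Cyp4a12b, a fatty acid hydroxylase gene of male kidney, was at 63.61 to 73.24 CPM in normal and 35.91 to 50.94 CPM in EV200 libraries (edgeR adjusted p 0.0713). Its near-identical neighbour can share its reads, so the split between the copies is uncertain. Kap, the abundant kidney androgen-regulated protein gene, was at 19440 to 22400 CPM against 17080, 18250 and 14930 CPM. The exceptions were Hao2 (log2 fold change 0.02) and Timd2 (-0.24), which overlapped. The list's members are expressed in the proximal tubule, whose own lists were lower as well, and what part that has in the result was not tested.

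Genes of metabolism and of drug handling were described in the same way, beside 12.9% below and 11.9% above over all genes tested. Of 23 fatty acid oxidation genes, 11 lay below every normal library (47.8%) and 1 above (4.35%), with a median of -0.15. The 1 above was Cyp4a14, at 2.669 to 5.231 CPM against 7.908, 10.55 and 11.64 CPM. Of 12 genes of cisplatin uptake, efflux and conjugation, 7 lay below (58.3%) and 1 above (8.33%). The copper and cisplatin importer gene Slc31a1 was at 205.1 to 213.2 CPM against 165.4 to 189 CPM. Of 12 glycolysis genes 4 lay above (33.3%) and 1 below (8.33%). Hk1, a hexokinase, was at 80.05 to 84.53 CPM in normal and 138, 112.3 and 119.6 CPM in EV200 libraries (edgeR adjusted p 0.0577). Of 25 respiratory chain genes, 4 lay below (16%, near the 12.9% of all genes tested) and 0 above, with a median of -0.09. None of these genes was called.

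Distal segments showed smaller or mixed values. In the distal convoluted and connecting tubule list, 1 of 14 genes, the kinase gene Stk39, lay above every normal library. Its members were at medians of 0.3, 0.18 and -0.21 in EV200 1, 2 and 3, so EV200 3 pointed the other way. Calb1, which encodes the calcium-binding calbindin, was at 272, 222.8 and 150.9 CPM against 145.2 to 176.5 CPM in normal libraries. Without EV200 3, 8 of the 14 lay above normal, against 15.9% of all genes. Principal cell genes lay above in 5 of 15, and in 9 without EV200 3. Intercalated cell genes lay above in 6 of 18, but the list median was 0.02 and 9 of the 18 log2 fold changes were positive. In EV200 3 the median of that list was -0.17 and its sum 981 CPM, under the normal 1073 to 1203 CPM. Gata3, a transcription factor of the collecting duct, was at 6.237 to 6.918 CPM against 7.99, 10.92 and 8.442 CPM. Aqp6, an aquaporin of intercalated cells, was at 18.08 to 23.16 CPM against 26.35, 36.38 and 43.82 CPM.

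**Figure D3:**
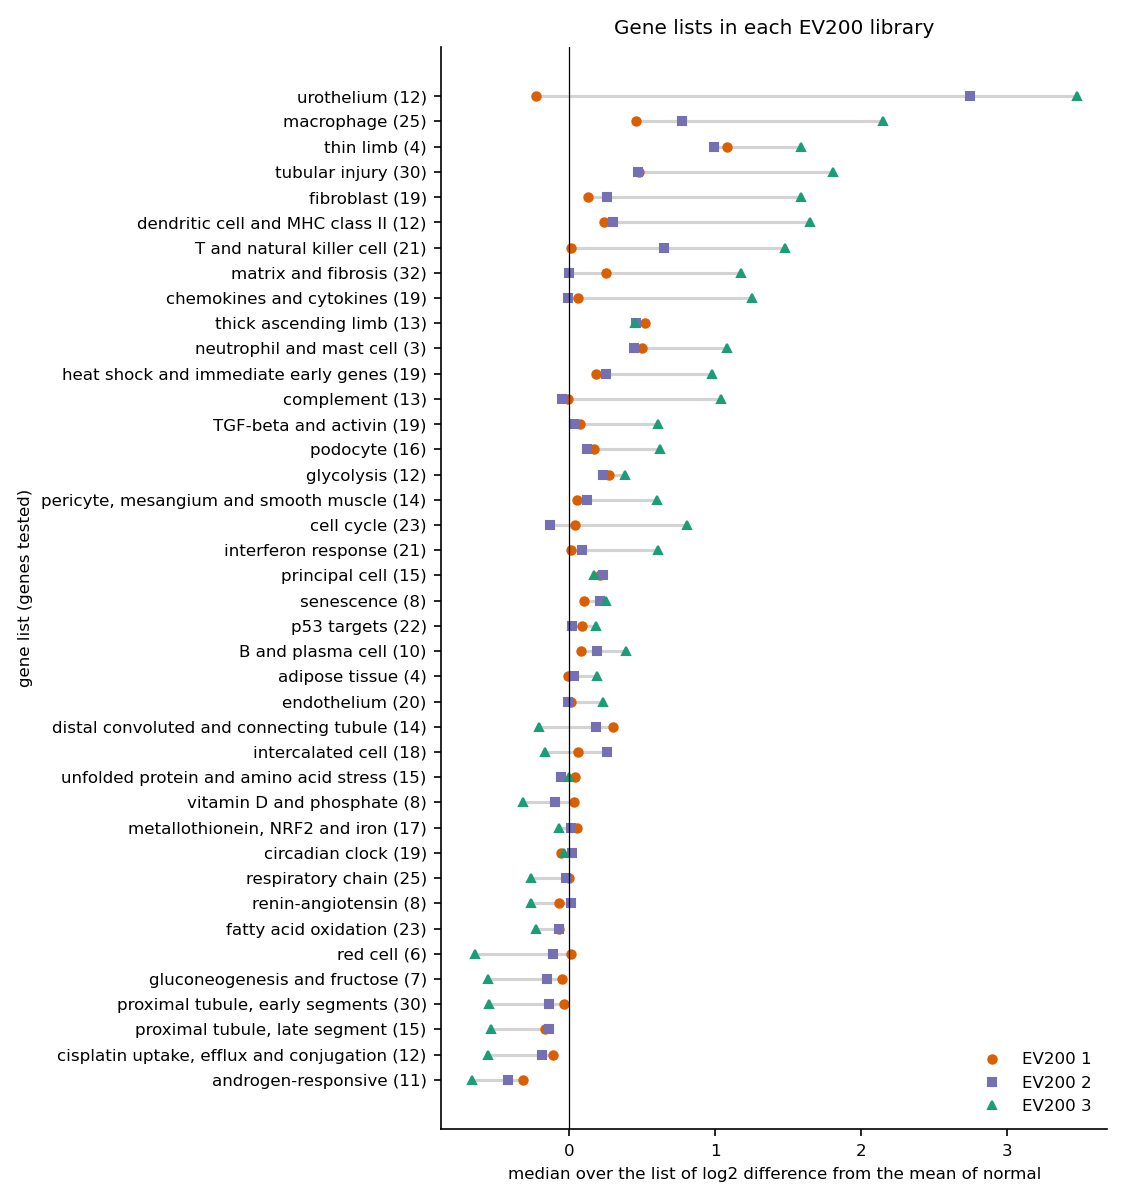
Median over each gene list of the log2 difference from the mean of normal, in EV200 1 (circles), EV200 2 (squares) and EV200 3 (triangles), with the number of genes tested in brackets. The thick ascending limb marks lie together at 0.45 to 0.52, while those of tubular injury run from 0.47 to 1.81 and of macrophage from 0.46 to 2.15.

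Tubular injury genes were above normal in every EV200 library for 22 of 30 members (73.3%) and below for 1, Gdf15, but none was called. Their median log2 fold change was 1.07, and the list medians were 0.48, 0.47 and 1.81 in EV200 1, 2 and 3. Krt7, a keratin of simple epithelia, came closest to the threshold and was even across libraries, at 39.64 to 44.4 CPM in normal and 62.4, 56.22 and 69.75 CPM in EV200 libraries (edgeR adjusted p 0.0631). Clu, which encodes the chaperone clusterin, was at 156.1 to 169.1 CPM against 238, 248.7 and 325.6 CPM. Spp1, which encodes osteopontin, was at 264.5 to 354 CPM against 557.2, 523 and 1326 CPM. These genes stood clear of normal in EV200 1 and 2, and were highest in EV200 3.

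Lcn2, which encodes lipocalin 2 (NGAL), was at 0.3388, 0.4927 and 0.7889 CPM in normal and 2.773, 3.047 and 24.18 CPM in EV200 libraries (edgeR adjusted p 0.125). Its log2 fold change was 4.21 ± 1.02 (SE) with EV200 3 and 2.43 without it. Havcr1, which encodes KIM-1, was at 2.073, 1.334 and 1.183 CPM against 3.774, 1.514 and 26 CPM, so that EV200 2 lay within the normal range. The same held for Cdkn1a, the p21 cell cycle inhibitor, at 3.305 to 3.986 CPM against 4.348, 3.749 and 10.54 CPM. Vcam1, an adhesion molecule of poorly repaired tubules, was at 6.062 to 9.346 CPM against 11.78, 10.64 and 77.88 CPM. Krt20, another keratin, was at 0.3446, 0.1662 and 2.941 CPM against at most 0.1232 CPM. Except in Havcr1 and Cdkn1a, EV200 1 and EV200 2 lay above normal, and in all 5 genes EV200 3 was highest.

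**Figure D4:**
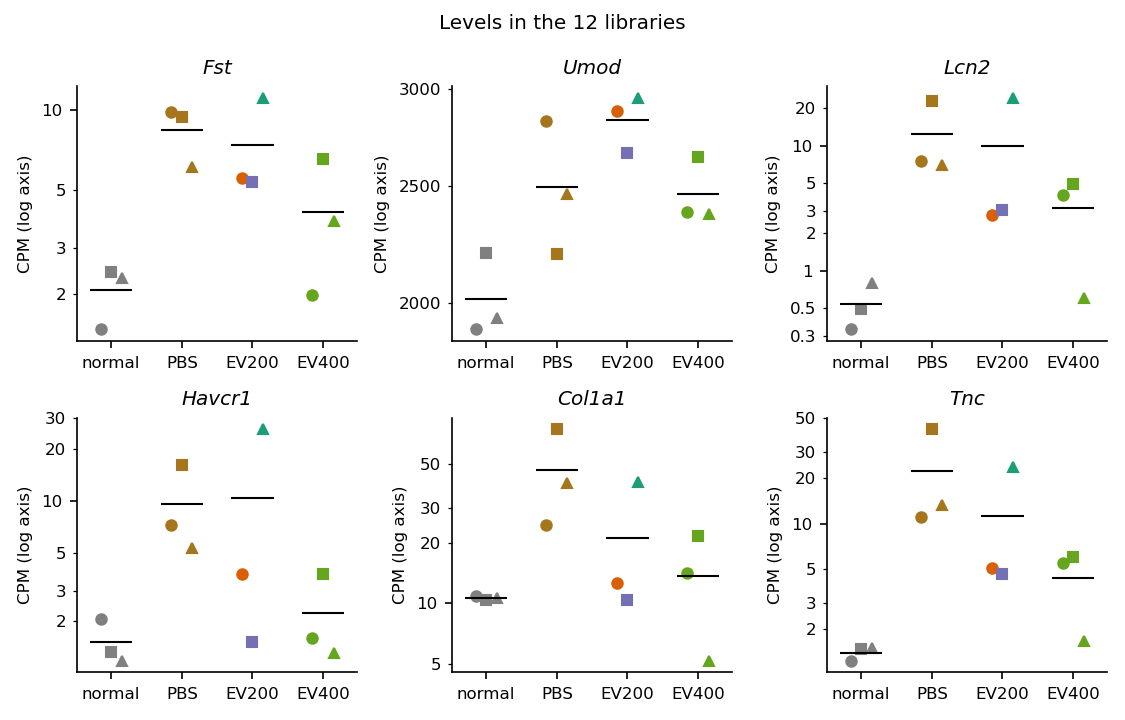
Levels of 6 genes (CPM, log axis) in the 12 libraries; marks are libraries 1 (circle), 2 (square) and 3 (triangle) of each group and bars are group means. Fst, Umod, Lcn2 and Tnc lie above normal in all 3 EV200 libraries, whereas Havcr1 and Col1a1 do so only in some, with EV200 3 at 26 and 40.65 CPM.

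Among heat shock and immediate early genes, 6 of 19 lay above every normal library and 0 below, and none was called. The inducible chaperone genes Hspa1a and Hspa1b, near-identical copies whose reads may be split, were at 13.16 to 14.81 and 16.03 to 18.17 CPM in normal libraries. In EV200 libraries they were at 24.59, 20.3 and 24.41 CPM and at 31.26, 25.52 and 36.28 CPM (edgeR adjusted p 0.066 for both). Of 22 p53 target genes 3 lay above (13.6%, near the 11.9% of all genes tested) and 0 below, with a median of 0.1. Cdkn2b, which encodes the cell cycle inhibitor p15, was at 0.1232 to 0.3388 CPM against 0.8696, 1.791 and 3.149 CPM (edgeR adjusted p 0.066). Cell cycle genes lay above in 1 of 23 (4.35%), Top2a. Ier3, an immediate early gene, was at 7.911 to 11.27 CPM against 21.95, 15.27 and 20.03 CPM, with EV200 1 highest.

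In the stroma, fibroblast and matrix genes were near normal in EV200 1 and EV200 2 and high in EV200 3. The matrix list of 32 genes had medians of 0.25, 0 and 1.18 in EV200 1, 2 and 3, and the fibroblast list of 19 had 0.13, 0.26 and 1.59. Col1a1, a chain of fibrillar collagen I, was at 10.88, 10.43 and 10.59 CPM in normal and 12.63, 10.42 and 40.65 CPM in EV200 libraries. Col3a1 was at 23.06, 24.96 and 24.35 CPM against 30.35, 24.77 and 105.6 CPM, and Fn1, which encodes fibronectin, at 28.88, 33.77 and 35.71 CPM against 40.74, 26.24 and 80.55 CPM. In all 3 genes EV200 2 was not above the normal range, and EV200 3 was the highest library. Their log2 fold changes were 1, 1.15 and 0.59 with EV200 3 (edgeR adjusted p 0.418 to 0.654), and 0.12, 0.19 and 0.03 without it.

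Part of the matrix list was nonetheless above normal in every EV200 library: 11 of 32 genes (34.4%), with 0 below and none called. Tnc, the matrix glycoprotein tenascin C, was at 1.236, 1.478 and 1.495 CPM in normal and 5.054, 4.654 and 23.87 CPM in EV200 libraries (edgeR adjusted p 0.133). Mmp3, which encodes stromelysin, had 0 counts in each normal library and 24, 35 and 113 in EV200 libraries. Its mean was at least 48.9-fold above a floor of 3 counts over the normal group. Col5a2, a chain of collagen V, was level across the 3 libraries, at 17.54 to 20.3 CPM in normal and 28.48, 26.74 and 28.53 CPM in EV200. Thbs1, which encodes thrombospondin, was at 31.35 to 37.86 CPM against 49.83, 52.01 and 69.84 CPM. Without EV200 3 the same list had 11 genes above normal (15.9% of all genes) and 5 below (16.7%).

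**Figure D5:**
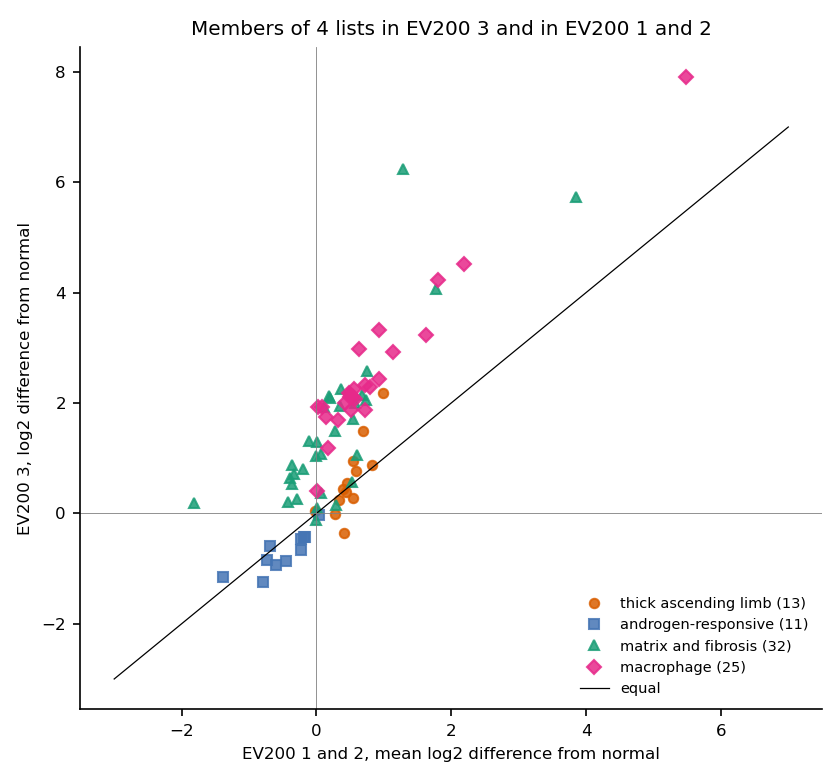
Log2 difference from the mean of normal in EV200 3 (vertical) against the mean of EV200 1 and 2 (horizontal), 1 mark per gene of 4 lists, with the line of equal values. Thick ascending limb genes scatter around the line and most androgen-responsive genes lie just under it at the lower left, while most matrix genes and all 25 macrophage genes lie above it.

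Of 19 fibroblast genes, 7 lay above normal and 2, Col14a1 and Ogn, below. Dpt, which encodes the matrix protein dermatopontin, was at 0.3587 to 0.8096 CPM against 0.9024, 1.939 and 6.781 CPM. Thy1, a surface protein of fibroblasts and T cells, was at 1.1 to 1.315 CPM against 1.838, 2.272 and 6.73 CPM. Among TGF-beta and activin genes, 8 of 19 lay above and 0 below. Tgfb1 itself overlapped, at 9.279 to 9.84 CPM against 10.07, 8.533 and 12.02 CPM. Ltbp2, a latent TGF-beta binding protein family member, was at 0 to 0.1794 CPM against 1.756, 1.293 and 9.273 CPM.

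Pericyte, mesangial and smooth muscle genes were near normal in EV200 1 and 2 and higher in EV200 3, with list medians of 0.05, 0.12 and 0.6. Their summed level was 204.3 to 216.6 CPM in normal and 198, 210.7 and 331.5 CPM in EV200 libraries, so that EV200 3 alone lay above normal. Of the 14 genes of this list 3 lay above, among them Acta2, smooth muscle actin, at 15.72 to 17.39 CPM against 17.67, 24.03 and 39.86 CPM. Endothelial genes had a median of 0.06, with 1 of 20 above and 2 below. The exceptions were Plat, the tissue plasminogen activator gene, at 22.68 to 25.95 CPM against 35.59, 29.77 and 64.72 CPM, and Igfbp3 and Esm1. Igfbp3, a growth factor binding protein of vessels, was at 214.4 to 245.3 CPM against 164.5, 143.1 and 108 CPM. Podocyte genes lay above in 7 of 16 (43.8%, against 11.9% of all genes tested) and below in 1 (6.25%, against 12.9%). Their medians were 0.17, 0.12 and 0.62 in EV200 1, 2 and 3. Plce1, a member above, was at 4.364 to 5.809 CPM against 6.875, 7.092 and 13.1 CPM. Clic5, the member below, was at 153.9 to 162.3 CPM against 139.5 to 143.6 CPM.

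Macrophage genes lay above every normal library in 15 of 25 members (60%) and below in 0, and none was called. Their medians were 0.46, 0.77 and 2.15 in EV200 1, 2 and 3. The summed level of the list was 204.9 to 257.1 CPM in normal libraries and 288.6, 334.5 and 903.7 CPM in EV200 libraries. Lyz2, which encodes lysozyme, was at 18.37, 9.956 and 10.69 CPM in normal and 38.11, 49.88 and 236.2 CPM in EV200 libraries. Cd14, a receptor for bacterial lipopolysaccharide, was at 1.993 to 2.47 CPM against 3.413, 3.915 and 11.24 CPM. EV200 1 and 2 were thus above normal, with EV200 3 far above both. The complement gene C3 was at 5.604 to 8.549 CPM against 18.77, 13.72 and 112 CPM, with EV200 3 again highest.

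Other immune lists had fewer members without overlap: 3 of 21 T and natural killer cell genes, 2 of 12 dendritic cell and class II genes, 3 of 19 chemokine and cytokine genes and 2 of 21 interferon genes above. These shares, 9.52% to 16.7%, lie near the 11.9% of all genes tested. Of the chemokine list 1 gene lay below, and 5 without EV200 3. Cxcl13, a B cell attractant, had 2, 0 and 0 counts in normal and 19, 33 and 90 in EV200 libraries (edgeR adjusted p 0.0673). Ccl2, a monocyte attractant, was at 0.3529 to 0.4384 CPM against 1.001, 0.3878 and 4.256 CPM and overlapped. Foxp3, which marks regulatory T cells and shares exons with neighbouring genes, had 0, 0 and 4 counts in normal and 14, 10 and 43 in EV200 libraries.

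Urothelial genes, markers of the lining of the renal pelvis, differed most between EV200 libraries. The list summed to 3.607 to 5.937 CPM in normal libraries and to 4.791, 28.09 and 43.23 CPM in EV200 1, 2 and 3. All 12 were tested, and 4 lay above every normal library. Psca was at 0.1794 to 0.4775 CPM against 0.9024, 4.322 and 9.221 CPM. EV200 2 and 3 thus lay above the normal sums and EV200 1 within them, and the part this has in the injury and matrix values was not tested. In EV200 1, Krt7, Lcn2 and Spp1 lay above every normal library, and so did the urothelial genes Psca, Upk3b and, narrowly, Gsdmc2 (0.2625 against at most 0.2491 CPM). The urothelial list as a whole had a median log2 difference from normal of -0.23 in EV200 1, against 2.75 and 3.48 in EV200 2 and 3. Its member Sprr1a, at 0.2953 CPM in EV200 1, lay within the normal 0.2591 to 0.4516 CPM.

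In the remaining lists none was called. The shares over all genes tested were 11.9% above and 12.9% below. Clock genes had a median of -0.06, with 2 of 19 above (10.5%) and 4 below (21.1%), and no hour of collection is given. Red cell genes overlapped in all 6 members tested. Of 8 vitamin D and phosphate genes 1 lay below (12.5%). Cyp27b1, which makes active vitamin D, was at 27.75 CPM in EV200 1 and at 4.192 and 6.089 CPM in EV200 2 and 3, against 6.158 to 9.051 CPM in normal libraries. Of 8 renin-angiotensin genes 2 lay below, among them Mas1, the receptor for a short angiotensin peptide, at 6.622 to 9.135 CPM against 5.825, 5.245 and 4.706 CPM. Metallothionein, NRF2 and iron genes lay above in 2 of 17 (11.8%) and below in 3 (17.6%), and unfolded protein genes in 1 of 15 each way (6.67%). B and plasma cell genes lay 1 above and 1 below of 10 (10% each), and adipose genes 2 above of 4 (50%). Senescence genes lay 3 above of 8 (37.5%): Cdkn1b, Cdkn2b and Lmnb1, a lamin that senescent cells usually lose. Complement genes lay 3 each way of 13 (23.1%), gluconeogenesis genes 3 below of 7 (42.9%), and neutrophil and mast cell genes 0 of 3.

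Exons of some genes named here overlap other gene models in GENCODE vM21. On the opposite strand these include Umod, Cubn, Cldn19, Fst, Krt7, Hk1, Thbs1, Tnc, Vcam1 and Fn1, and on the same strand Spp1, Gata3 and Col3a1. Their reads may be shared, since the strand setting of the counting is not given.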

How the data were processed

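RNA from 12 mouse kidneys was sequenced as paired reads with a stranded mRNA kit, per the labels' protocols. Per the submitters' processing notes, the tools include StringTie 2.1.3b, HISAT2 2.1.0, Trimmomatic 0.38 and FastQC 0.11.7, with GRCm38 and mm10 as builds. Which tool counted reads, with what strand setting, is not given in the sources used here. As deposited, the authors' table holds whole-number read counts for 45777 genes, used as they stand, and 24 FPKM and TPM columns, which were not used. Counts of 0 in every library were found in 17340 genes.

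Counts of all 12 libraries were fitted in R 4.3.3 with edgeR 4.0.16 (TMM scaling, default filter by group, quasi-likelihood test, 8 residual degrees of freedom, 18730 genes), with EV200 minus normal as the contrast and Benjamini-Hochberg adjustment over all genes tested. The code was tested on simulated data. Fold changes carry a standard error of their size over the root of F. Names and coordinates came from RefSeq (GRCm38.p6, 18690 tested genes matched) and exon overlaps from GENCODE vM21. Lists (40, with 656 genes, 634 tested) were described without a test. The comparison, the members and the lists were chosen with earlier results of these data known. Genes named were, per direction, up to 12 called genes and 8 with the widest gap, 4 per list by p, 12 injury and fibrosis genes, and Aak1 with Gm38495. The called and widest-gap genes had a mean of 5 CPM or more in the higher group and a symbol that is not provisional. Outside this rule, and picked after their values were seen, are LOC115488616, Adipoq, Egf, Cldn10, Kap, Hao2, Timd2, Gdf15, Col14a1 and Ogn. DESeq2 1.42.0, limma 3.58.1, other filters and scalings, a replicate block, a minimum fold change and leaving out each library were alternatives. Summing Aak1 and Gm38495, and list counts without EV200 3, were added after seeing the data. Some genes of the lists are not reported here by name.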

Additional observations from a re-analysis of the deposited data

Results flagged for a closer look

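Aak1, a kinase gene of clathrin-coated vesicles, differed between EV200 and PBS by a log2 fold change of 1.34 (edgeR adjusted p 0.0202), and Gm38495 by -7.39 (adjusted p 0.0202), while neither was called between EV200 and normal. Aak1 was at 88.12 to 100.4 CPM in EV200, 97.86 to 102.1 CPM in normal and 26.02 to 46.61 CPM in PBS libraries. Gm38495 was at 0 to 0.5414 CPM in EV200 and 40.63 to 72.41 CPM in PBS libraries. An older name makes both 1 gene in RefSeq, and their summed counts gave -0.10 ± 0.09 (SE) for EV200 minus normal (edgeR adjusted p 0.658), with 13 genes called in that fit. LOC115488616, at 0 in all EV200 libraries, differed from PBS by -7.58 (edgeR adjusted p 0.00796) and from EV400 by -7.79 (adjusted p 0.00587); these fitted values depend on the prior count and are no bound. The 3 genes are the only ones edgeR called between EV200 and PBS.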

How the results depend on the processing

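With DESeq2 size factors, 6 genes were again called higher and 7 lower, and with no filter on low counts 4 and 6. A stricter filter gave 17 higher, all without overlap. DESeq2 called 384 higher and 107 lower (370 and 107 without overlap), and limma-voom with quality weights, which weighted EV200 3 by 0.283 and EV200 2 by 2.97, called 607 and 491 (559 and 430 without overlap); both included all 13. A fit of both groups alone called 15 and 13, and a test against a log2 fold change of 0.5 called 0 and 2. With the replicate number as a block, 3 higher and 3 lower genes were called, all 6 among the 13, but the numbers do not pair the samples (correlations of same-numbered deviations -0.017, 0.096 and -0.01). Leaving out each library gave 0 to 50 higher and 2 to 8 lower calls, with or without the overlap condition, and 3028 to 4142 higher and 2748 to 3757 lower genes without overlap, where fewer libraries make separation easier. Of the 14 alternative fits, Ctxn3 was called in all, and Abca4, Gusb and Bsnd in 5 each. None of the 13 changed direction. With limma-voom, the sign turned for S100a8 (-1.79), Cyp27b1 (-0.30), Fn1 (-0.087), Tgfb1 (-0.094) and Gm38495 (1.07). Over the libraries left out, the values ran from -0.75 to 0.98 for S100a8, -0.26 to 0.032 for Cidec, -0.54 to 1.19 for Cyp27b1, -0.048 to 0.21 for Tgfb1 and -0.99 to 0.84 for Gm38495. The cause of these changes was not tested. With 3 libraries a group, and 1 of them apart, an uncalled gene is not shown to be at its normal level.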
